A study of Mus musculus with 9 samples.

Results

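Myelin and mature oligodendrocyte genes were followed in RNA sequencing counts from punches of the paraventricular nucleus of the hypothalamus (PVN), taken from 9 male mice that formed 3 groups of 3 named Control, HFD and HFD+Mino. The 33 genes were taken by symbol from a list of markers of myelin and of the cells that make it, and all 33 were found among the 27179 genes of the count table. The mice were wild type, C57BL/6 in the sample labels and C57BL/6J in the study's methods, and began their diets at 5 weeks of age (post natal day 35 in the sample labels). Chow, with 16% of calories from fat, was the diet of the Control group. The other groups received 60% of calories from fat, and the diets lasted 12 weeks. HFD+Mino animals were also given minocycline, a tetracycline antibiotic that dampens microglial activation, in their drinking water (40 mg/kg/day) over the final 6 weeks. A punch is a plug of whole tissue, so that neurons, glia and vessels contribute to each value. A lower value can mean fewer oligodendrocytes in the punch or less RNA per cell, and these cannot be told apart in such samples.

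Oligodendrocytes wrap axons in a many-layered, lipid-rich membrane that speeds conduction, and they also supply the axon with metabolites. They arise from oligodendrocyte precursor cells (OPCs), which pass through a short-lived newly formed stage before the myelin genes reach their full level. Precursors persist in the adult brain and keep producing oligodendrocytes, and the fibre tracts beside the PVN are far more densely myelinated than the nucleus itself. Of the 33 genes, 14 encode proteins of the sheath or of the oligodendrocyte membrane. These include Mbp, the basic protein that compacts the membrane, Mog and Mag on the outer and inner surfaces, and Cldn11 of its tight junctions. Another 7 encode cytoskeletal, chaperone and stress proteins, among them the actin-associated Ermn, the actin-severing Gsn and the small heat shock protein Cryab. A further 8 are enzymes and secreted proteins, such as Ugt8a and Fa2h of galactolipid synthesis, Aspa, which splits N-acetylaspartate, and the iron carrier Trf. The last 4 are the transcription factors Myrf and Nkx6-2 and the receptors Lpar1 and Gpr37.

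Levels are given as CPM, which are counts divided by the TMM-adjusted library size that edgeR computes. Total counts were lowest in HFD replicate 1 (17728590) and highest in Control replicate 1 (42326213), and each mouse gave 1 library. The library labelled Control replicate 1 stood apart and went against its tissue label. The 7 PVN markers (Avp, Oxt, Crh, Trh, Sim1, Otp and Pou3f2) summed to 39.1 CPM in it and to between 947 and 37761 CPM in the other 8 libraries. Oxt was at 0.77 CPM, Avp at 0.149 CPM and Otp at 0 counts there. The 4 ependymal markers, genes of the ciliated cells that line the third ventricle beside the PVN, summed to 8.296 CPM against 114 to 494 CPM. Quasi-likelihood results of the 33 genes that use Control samples are therefore given with and without this library. Counts by the other tools, counts of groups lying apart and several results of other lists are given with it alone. The PVN markers also set HFD+Mino replicates 1 and 2, at 37761 and 31989 CPM, apart from replicate 3 at 3111 CPM. Rn45s, the ribosomal RNA precursor, was at 239 to 461 CPM in Control, 3477 to 3829 CPM in HFD and 426 to 1346 CPM in HFD+Mino libraries. The part that these library differences play in the results was not tested.

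The library labelled Control replicate 1 held the highest level of 32 of the 33 myelin genes. Over all 17344 tested genes it was highest for 12%. The summed level of the 33 genes was 34868 CPM there, 7564 and 4876 CPM in Control replicates 2 and 3, 3715, 8441 and 5984 CPM in HFD, and 4442, 3858 and 7493 CPM in HFD+Mino. Leaving that library out, the 3 groups overlapped in this sum. For 29 of the 33 genes it exceeded 2 times the highest other library (1.87% of tested genes), and for 21 it exceeded 3 times (0.83%). Its ratio to the mean of Control replicates 2 and 3 had a median of 5.201 over the 33 genes, from 0.879 for Nkx6-2 to 9.91 for Apod. Over all tested genes, with 0.5 CPM added to both levels, the median was 0.981. By role among the 33 genes, the median ratio was 5.83 for sheath and membrane proteins, 6.03 for cytoskeletal and stress proteins, 4.69 for enzymes and secreted proteins and 3.51 for the regulators. Nkx6-2, a homeodomain factor also made by some neurons and precursors, was the exception, with 79.7 CPM in Control replicate 1 and 106 CPM in Control replicate 2.

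**Figure D1:**
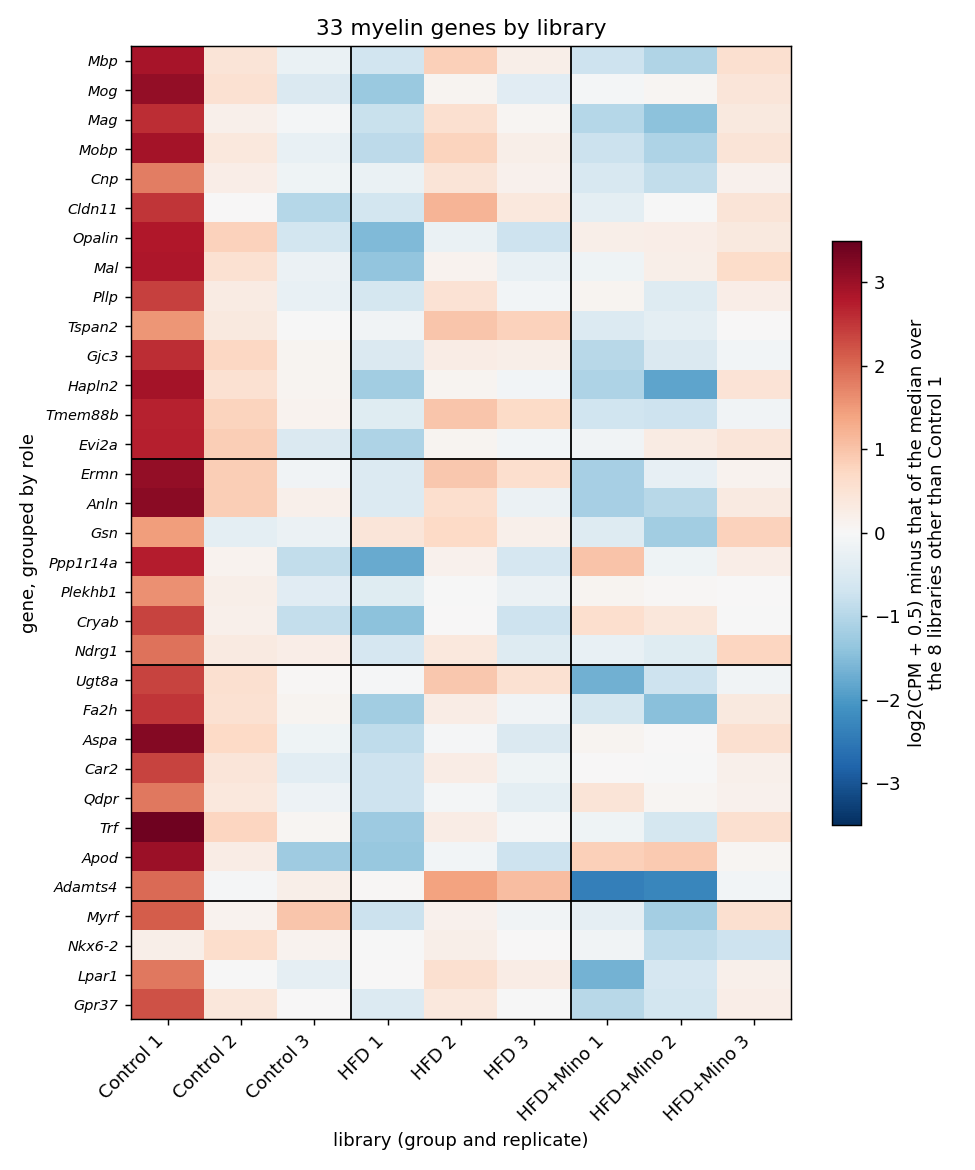
Level of each of the 33 genes (vertical, grouped by role) in each library (horizontal), as log2(CPM + 0.5) minus that of the gene's median over the 8 libraries other than Control replicate 1. The Control replicate 1 column is the highest for 32 of 33 genes, and HFD replicate 1 is the lowest of the other 8 libraries for 14.

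**Figure D2:**
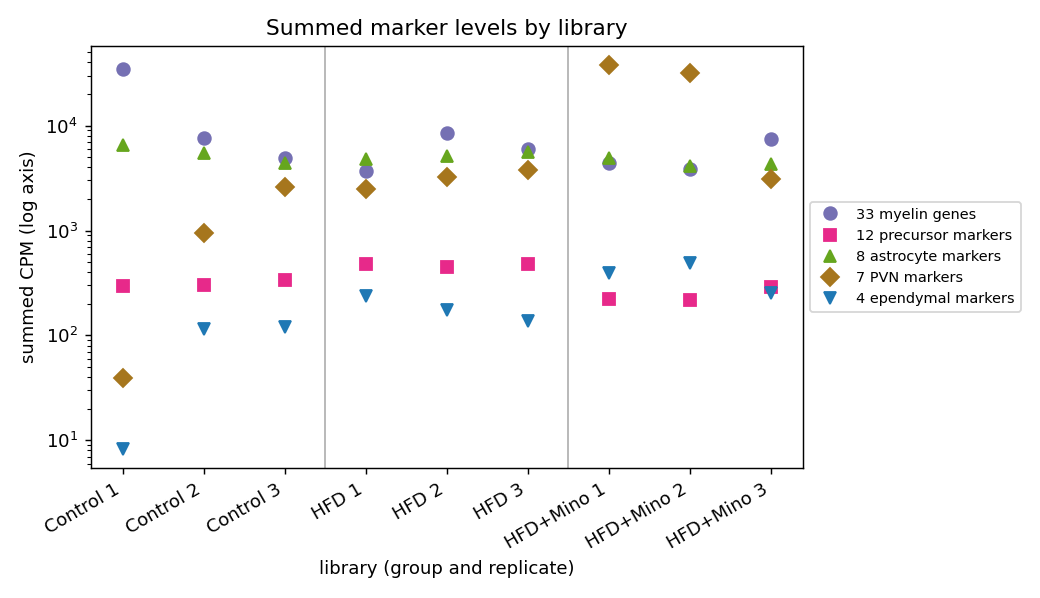
Summed CPM (log axis) of the 33 myelin genes and of markers of precursors, astrocytes, PVN neurons and ependymal cells in each of the 9 libraries. In Control replicate 1 the myelin sum is 34868 CPM while the PVN and ependymal sums are 39.1 and 8.296 CPM, the lowest of the 9 libraries.

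The remaining 8 libraries gave the order of levels within the punches. Per kilobase of exon, Mbp was the most abundant, with a median of 287 CPM per kb over these libraries. It was followed by Plekhb1 (187, a membrane-associated protein with a PH domain), Cnp (133, a phosphodiesterase that keeps cytoplasmic channels in myelin open), Trf (103) and Car2 (99.1, carbonic anhydrase). Qdpr, a pterin reductase, and Cryab came next at 90.6 CPM per kb each. The lowest were Adamts4 (1.11, a matrix protease), Anln (0.979, a scaffold of septin filaments) and Myrf (0.678, the factor that turns myelin genes on). Mbp alone made up 30.7% to 51.7% of the summed CPM of the 33 genes, and its lowest shares were the 33.3% and 30.7% of HFD+Mino replicates 1 and 2. Over the 8 libraries the ratio of the highest to the lowest level had a median of 4.05 for the 33 genes, against 2.73 for all tested genes. For the 33 genes it ran from 1.53 for Plekhb1 to 24.4 for Adamts4. In the ratio over all tested genes 0.5 CPM was added to both levels, which draws it toward 1. The 2 medians are therefore not fully alike.

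Most of the genes moved together from library to library. Over the 8 libraries the Spearman correlation of a gene with the mean of the other 32 had a median of 0.71, a description over libraries that share their scaling. It was highest for Cnp and Pllp (0.93 each, Pllp being a proteolipid of the membrane) and lowest for Apod (0.071), Cryab (0.14), Qdpr (0.29) and Plekhb1 (0.31). HFD replicate 2 was the highest of the 8 libraries for 12 genes and Control replicate 2 for 13. HFD replicate 1 was the lowest for 14, HFD+Mino replicate 2 for 10 and HFD+Mino replicate 1 for 8. Within HFD the coefficient of variation had a median of 42.8% for the 33 genes and 14.9% for all tested genes, and in HFD+Mino the medians were 38.4% and 35.9%. In Control they were 101% and 24.8%, the former 32.02% in replicates 2 and 3 alone. The median of these genes was thus above that of all tested genes in each group.

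Sequence upstream of the start site is shown for 5 genes that differ in how they behaved in the comparisons: Opalin, Mog and Apod, which stood higher in HFD+Mino than in HFD relative to the other myelin genes, Tmem88b, which stood lower, and Mobp, which overlapped. RefSeq start sites on GRCm38.p6 were matched for 24 of the 33 genes, with 32 start sites in all, and no entry was used for Fa2h, Trf, Adamts4, Evi2a, Mbp, Cryab, Myrf, Car2 and Ndrg1. Each run holds the 250 bases before the start site, 5′ to 3′ on the strand of the gene. Capitals mark matches on either strand to CTGGNAC, letters bound by MYRF, and to ACAANG, a core of SOX factor motifs. Matches of both kinds could share letters and did not do so in these 5 runs.
Opalin (chr19:41077114-41077363, minus strand): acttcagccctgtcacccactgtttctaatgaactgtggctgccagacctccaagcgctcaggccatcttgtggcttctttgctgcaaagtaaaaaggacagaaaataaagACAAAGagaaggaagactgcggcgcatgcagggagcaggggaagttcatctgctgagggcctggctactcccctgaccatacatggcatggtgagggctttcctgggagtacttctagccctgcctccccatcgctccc
Mog (chr17:37023399-37023648, minus strand): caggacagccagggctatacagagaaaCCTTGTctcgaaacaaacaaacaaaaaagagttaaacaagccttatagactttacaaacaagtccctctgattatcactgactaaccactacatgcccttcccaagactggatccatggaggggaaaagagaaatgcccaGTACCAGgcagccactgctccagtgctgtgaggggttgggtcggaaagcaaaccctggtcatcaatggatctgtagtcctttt
Apod (chr16:31314809-31315058, minus strand): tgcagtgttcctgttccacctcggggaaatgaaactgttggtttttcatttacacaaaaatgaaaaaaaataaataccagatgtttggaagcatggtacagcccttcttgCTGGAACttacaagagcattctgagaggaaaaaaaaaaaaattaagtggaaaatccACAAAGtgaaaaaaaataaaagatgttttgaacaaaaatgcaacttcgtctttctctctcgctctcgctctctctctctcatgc
Tmem88b (chr4:155785875-155786124, minus strand): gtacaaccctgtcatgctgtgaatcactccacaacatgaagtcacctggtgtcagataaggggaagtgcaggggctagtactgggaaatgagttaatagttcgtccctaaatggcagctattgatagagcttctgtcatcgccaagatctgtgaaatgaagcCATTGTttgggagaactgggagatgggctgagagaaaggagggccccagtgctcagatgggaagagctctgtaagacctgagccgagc
Mobp (chr9:120149492-120149741, plus strand): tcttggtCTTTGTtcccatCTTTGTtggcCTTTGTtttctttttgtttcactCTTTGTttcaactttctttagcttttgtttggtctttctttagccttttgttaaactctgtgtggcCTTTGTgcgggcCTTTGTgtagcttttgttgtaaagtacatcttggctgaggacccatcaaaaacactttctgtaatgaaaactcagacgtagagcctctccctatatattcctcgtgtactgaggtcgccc
Mog and Apod held both kinds of match, Opalin and Tmem88b a SOX match alone, and Mobp 6 SOX matches. In windows of these 250 bases, the MYRF letters lay in 10 of the 32 windows of the matched genes (31.2%), against 16.1% of all 32851 windows in the RefSeq table. The SOX letters lay in 17 of 32 (53.1%), against 36.3%. The E-box CAGCTG lay in 4 windows (12.5%, against 13% of all) and TATAAA in 1 (3.12%, against 12.4%), so that motif shares differed in both directions. Windows of the same gene can overlap, and a match is a run of letters and not a measured site.

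The comparison of HFD with Control addresses the effect of the diet. No myelin gene passed the thresholds, and without the library labelled Control replicate 1 the log2 fold changes of 28 of the 33 genes were nearer 0. Those of the other 5 (Cldn11, Tspan2, Gsn, Adamts4 and Nkx6-2) were further from it, all but that of Nkx6-2 with the sign turned to positive. A gene was called at a Benjamini-Hochberg FDR under 0.01 over all tested genes and at least 1.5-fold in edgeR's quasi-likelihood test, fitted to all 9 samples. By this rule 0 of the 33 genes were called, against 1.74% of all tested genes, while DESeq2 and edgeR's likelihood ratio test each called 2 (Opalin and Aspa, both lower). These tools called 7.83% and 5.57% of all genes, the DESeq2 share being of the genes that it gave an adjusted p, so that 2 of 33 lay near the background. At an unadjusted p under 0.05, 20 of the 33 were lower and 0 higher in HFD, against 9.22% and 11.3% of all genes. The median log2 fold change was -1.43, against 0.0043 for all genes, and all 33 values were negative (49.7% of all genes). Without Control replicate 1 the median was -0.27, 22 of 33 values were negative (47.4% of all genes), and 2 genes were lower and 0 higher at that unadjusted p, against 6.09% and 7.48%. The quasi-likelihood test again called 0 in that fit, against 1.01% of all genes. With all libraries, 0 of the 33 had HFD values wholly above or below Control, against 19.7% and 16% of all genes.

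Opalin, a membrane glycoprotein particular to oligodendrocytes (Entrez 226115, chr19:41061959-41077113 on GRCm38.p6), had the lowest p of the 33. It was at 219.8, 54.4 and 19.6 CPM in Control, 10.3, 26.5 and 18.8 CPM in HFD, and 35.7, 36.9 and 39.7 CPM in HFD+Mino. HFD replicate 2 overlapped Control replicate 3, and all 3 HFD+Mino values lay above all 3 HFD values. Its log2 fold change in HFD against Control was -2.40 (SE 0.69, FDR 0.0696, edgeR), and -0.998 (SE 0.44, FDR 0.342) without Control replicate 1.

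Aspa (Entrez 11484, chr11:73304987-73326876) was at 204, 35.4 and 19.2 CPM in Control and at 11.4, 21.1 and 15.1 CPM in HFD. It missed the threshold with a log2 fold change of -2.44 (SE 0.70, FDR 0.0709), and -0.78 (SE 0.35, FDR 0.358) without Control replicate 1. Trf was at 3593, 572 and 358 CPM in Control and at 140.5, 408 and 326 CPM in HFD. Its log2 fold change was -2.37 (SE 0.76, FDR 0.101) or, without Control replicate 1, -0.67 (SE 0.44, FDR 0.604). In both genes Control replicate 3 lay within the range of the HFD mice.

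Mbp, the marker most often used for myelin content, was at 18005, 3329 and 2056 CPM in Control, 1539, 4361 and 2808 CPM in HFD, and 1478, 1183 and 3619 CPM in HFD+Mino. Its log2 fold change in HFD was -1.43 (SE 0.74, FDR 0.303) with all libraries and 0.11 (SE 0.51, FDR 0.97) without Control replicate 1, so that its direction rested on that library. Among the 14 sheath and membrane genes the median went from -1.47 to -0.02 when that library was left out, and among the 7 cytoskeletal and stress genes from -1.45 to -0.27. Among the 8 enzymes and secreted proteins it went from -1.57 to -0.40, and among the 4 regulators from -0.89 to -0.27. The median SE of the 33 log2 fold changes was 0.65 with all libraries and 0.43 without it.

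**Figure D3:**
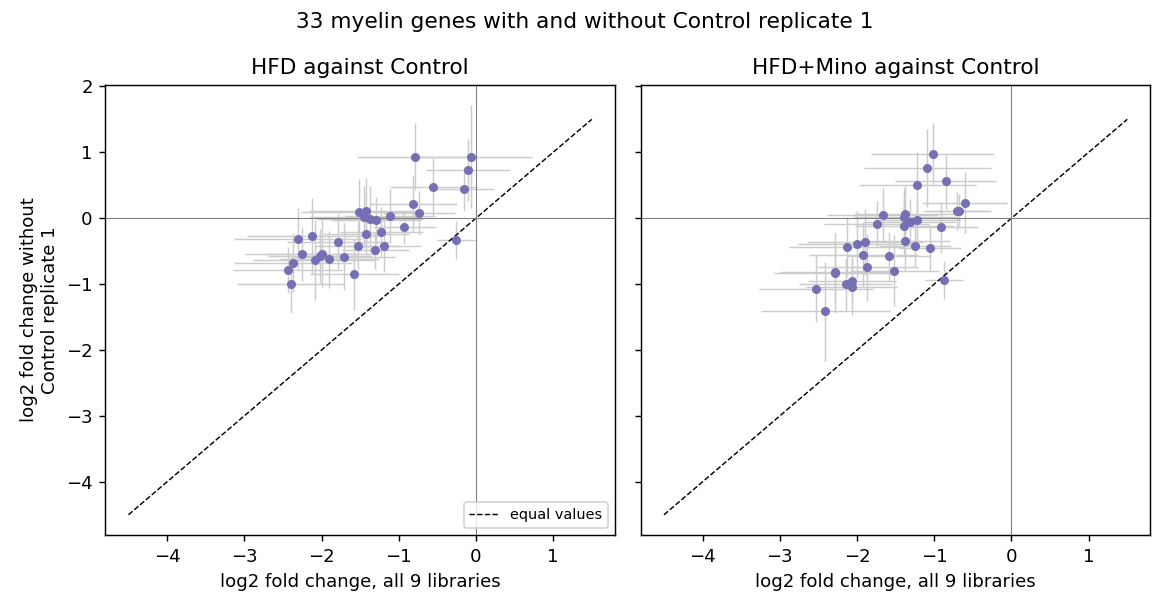
Log2 fold change of each of the 33 genes (points, with SE as bars) in HFD (left) and HFD+Mino (right) against Control, with all 9 libraries (x axis) and without Control replicate 1 (y axis). All genes but Nkx6-2 lie above the dashed line of equal values, and the medians move from -1.43 to -0.27 and from -1.39 to -0.36.

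The comparison of HFD+Mino with HFD addresses the effect of minocycline under the diet. The fold changes do not use the Control samples, which enter only through the shared spread, and the 33 genes went in both directions. Of the 33 genes, 0 were called by edgeR's quasi-likelihood test, against 4.15% of all tested genes, with DESeq2 calling 1 (Adamts4, lower) and the likelihood ratio test 0, against 26.1% and 19.1% of all genes by these tools. At an unadjusted p under 0.05, 3 were lower (Adamts4, Nkx6-2 and Tspan2) and 0 higher, against 19.8% and 21.6% of all genes. The median log2 fold change was -0.19, against 0.0089 for all genes, with 19 of 33 values negative (49.7% of all genes). Without Control replicate 1 the fold changes were nearly the same and the spread smaller (median SE 0.39 in place of 0.64). In that fit 4 genes were higher (Opalin, Cryab, Qdpr and Apod) and 5 lower (Tspan2, Tmem88b, Ugt8a, Adamts4 and Nkx6-2) at that unadjusted p, against 21.7% and 19.9% of all genes. Again 0 were called, against 5.27%, and the lowest FDR was 0.0321, that of Adamts4.

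Adamts4, a secreted protease that cleaves proteoglycans and is made in brain mainly by oligodendrocytes (Entrez 240913, chr1:171250129-171262267), showed the largest difference of the 33. It was at 5.57, 15.1 and 11.97 CPM in HFD and at 0.616, 0.706 and 4.999 CPM in HFD+Mino, beside 22.6, 5.14 and 6.24 CPM in Control. The treated and untreated HFD mice did not overlap, and HFD+Mino replicate 3 came close to HFD replicate 1. The log2 fold change was -2.35 (SE 0.83, FDR 0.0555, edgeR). Without HFD+Mino replicate 3 it was -4.04 and passed the threshold (FDR 0.00302), so that this library decided the call.

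Nkx6-2 (Entrez 14912, chr7:139579376-139582797) was at 68.5, 79.2 and 69.9 CPM in HFD and at 63.8, 36.96 and 41.7 CPM in HFD+Mino. The groups did not overlap, and its log2 fold change of -0.61 (SE 0.25, FDR 0.0876) missed the threshold. With a smooth trend of each sample on exon length removed, the log2 fold change was -1.25 and was called (FDR 0.00582). Tspan2, a tetraspanin that rises early in myelination, was at 76.996, 166 and 149 CPM in HFD and at 60.2, 65.9 and 84.4 CPM in HFD+Mino. These overlapped, with a log2 fold change of -0.90 (SE 0.40, FDR 0.116).

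In CPM, 5 genes had all 3 HFD+Mino values above all 3 HFD values (Opalin, Aspa, Apod, Qdpr and Plekhb1) and 3 had them below (Adamts4, Ugt8a and Nkx6-2). Of all tested genes 23.3% and 23.5% did so, so the shares among the 33 were lower than the background. Since total myelin RNA varied between mice, levels were also taken relative to the myelin genes of the same library, as log2(CPM + 0.5) minus its mean over the 33 genes, a measure chosen after the data were seen. On this scale 8 genes lay wholly higher in HFD+Mino (Apod, Opalin, Ppp1r14a, Cryab, Mal, Aspa, Mog and Evi2a) and 6 wholly lower (Adamts4, Ugt8a, Lpar1, Tmem88b, Tspan2 and Cnp). Of all tested genes set on the same scale, 5.39% lay higher and 11.3% lower. Subtracting the mean of the 33 genes removes their shared variation from them and adds it to other genes. These 2 shares are therefore not a like reference for the 8 and the 6. Of the 29 other oligodendrocyte-enriched genes on this scale, 7 lay wholly higher and 9 wholly lower. Such separations were thus not particular to the 33 genes. The other 19 myelin genes overlapped.

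Apod, a lipid carrier that also rises in stressed and ageing glia (Entrez 11815, chr16:31296192-31314808), moved furthest up. Its relative level was -0.60, -0.48 and -0.69 in HFD and 1.30, 1.46 and -0.15 in HFD+Mino (log2 units), and its level was 22.03, 52.8 and 33.8 CPM against 101, 106 and 59.3 CPM. Cryab was at 49.5, 136 and 80.3 CPM in HFD and 201, 175 and 132 CPM in HFD+Mino. HFD+Mino replicates 1 and 2, the libraries with the high PVN marker sums, were the highest of the 6 for Apod and for Cryab. Mog (Entrez 17441, chr17:37010740-37023398) was at 20.9, 55.5 and 39.4 CPM in HFD and 49.4, 54.7 and 69.6 CPM in HFD+Mino, which overlap. Its relative level was -0.67, -0.41 and -0.47 in HFD and 0.28, 0.52 and 0.08 in HFD+Mino, which do not. Opalin, in the same way, went from -1.66, -1.46 and -1.52 to -0.18, -0.04 and -0.73.

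In the other direction Ugt8a, which makes the galactosylceramide of myelin, was at 28.4, 56.03 and 42.7 CPM in HFD and 8.83, 17.5 and 26.99 CPM in HFD+Mino. Its relative level was -0.24, -0.39 and -0.35 in HFD and -2.14, -1.10 and -1.27 in HFD+Mino. Tmem88b, a membrane protein, was at 15.4, 40.8 and 33.3 CPM in HFD and 12.6, 12.3 and 18.8 CPM in HFD+Mino, with relative levels of -1.10, -0.85 and -0.71 against -1.65, -1.59 and -1.78. Centring on the 33 genes means that some must rise where others fall, so opposite directions on this scale are partly built in. The log2 fold changes from edgeR, which are not so centred, were -1.25 for Ugt8a and -1.04 for Tmem88b. They were 0.58 for Mog and 1.01 for Opalin, and none of these genes was called in this comparison.

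**Figure D4:**
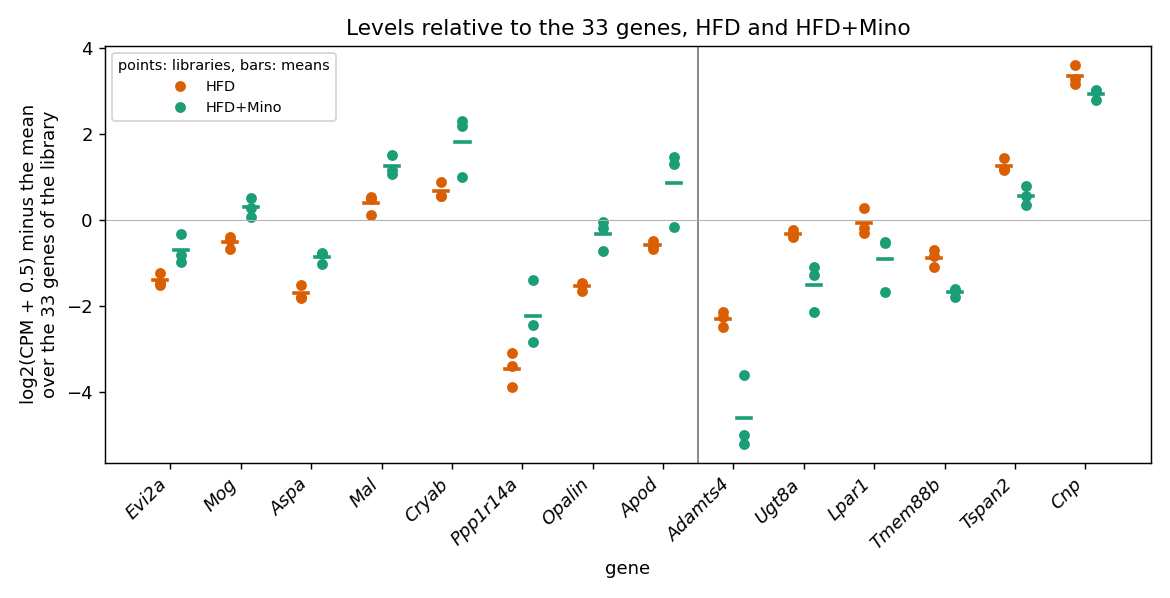
Level relative to the 33 genes of the same library (log2 units) for the 8 genes that lay wholly higher in HFD+Mino (left of the line) and the 6 that lay wholly lower (right). Points are libraries, 3 per group, and bars are group means, with Apod the largest rise and Adamts4 the largest fall.

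The same question was put to edgeR with the mean log2 level of 29 other oligodendrocyte-enriched genes as a term of the model, an alternative chosen after the data were seen. Of the 33 genes, 10 were then higher and 5 lower in HFD+Mino at an unadjusted p under 0.05, against 22.2% and 20.4% of all tested genes, and 0 were called, against 4.94%. The lowest FDRs were those of Opalin, with a log2 fold change of 1.37 (SE 0.31, FDR 0.0141), Aspa with 0.96 (SE 0.24, FDR 0.0175) and Adamts4 with -2.31 (SE 0.58, FDR 0.0182). Without Control replicate 1 the counts were 10 and 4, against 19.6% each, and 0 called, against 3.4%.

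Exon length moved with these differences. The 8 relatively higher genes had a median exon length of 2437 nt, the 6 lower ones 4412.5 nt and the 19 others 3635 nt. The Spearman correlation of exon length with the relative difference was -0.48 across the 33 genes, and that with the log2 fold change was -0.49 across 15626 tested genes of known length. For GC content the correlations were 0.03 and 0.04. With the length trend removed, the median log2 fold change of the 8 genes went from 0.81 to 0.28 and that of the 6 from -0.97 to -0.85. Opalin, Aspa and Apod then stood at 0.85, 1.09 and 0.98, while Mog, at -0.07, no longer stood higher. The part of length in these differences beyond this correction was not tested.

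Relative levels also set HFD apart from Control, a comparison that shares the HFD mice with the one above. Of the 33 genes, 8 lay wholly lower in HFD (Mog, Opalin, Mal, Hapln2, Anln, Fa2h, Aspa and Trf) and 5 wholly higher (Tspan2, Gsn, Ugt8a, Adamts4 and Lpar1). On the same scale 0.565% of all tested genes lay lower and 10.5% higher, a background that carries the high myelin level of Control replicate 1 into every gene. Trf stood at 3.60, 2.95 and 2.88 in Control and 2.05, 2.46 and 2.57 in HFD, and Mal, a proteolipid of compact myelin, at 1.19, 0.89 and 0.77 and 0.12, 0.49 and 0.54. Gsn stood at -0.53, -0.35 and 0.39 in Control and 1.55, 0.69 and 0.61 in HFD, and Ugt8a at -0.97, -0.77 and -0.68 and -0.24, -0.39 and -0.35. Since every Control library lay on the same side, leaving out Control replicate 1 cannot undo these separations. This is therefore no check on that library, and the background shares without it are not given here.

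HFD+Mino was also compared with Control, which shares the chow animals with the diet comparison and the treated animals with the minocycline comparison. Here 0 of the 33 genes were called by edgeR's quasi-likelihood test, as for all genes (0%), and DESeq2 called 3 (Gjc3, Tmem88b and Anln, all lower), the likelihood ratio test 0, against 1.8% and 0.611% of all genes. At an unadjusted p under 0.05, 21 were lower and 0 higher, against 8.63% and 12.7% of all genes, and all 33 log2 fold changes were negative (51.2% of all genes). The median of -1.39 became -0.36 without Control replicate 1, where 23 were negative (50.4% of all genes) and 4 were lower and 0 higher at that p (Gjc3, Tmem88b, Ugt8a and Nkx6-2), against 7.74% and 12.3%. In CPM 5 genes had all 3 HFD+Mino values below all 3 Control values (Gjc3, Tmem88b, Ugt8a, Adamts4 and Nkx6-2) and 0 above, against 10.1% and 8.93% of all genes.

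Gjc3, a connexin of oligodendrocyte gap junctions, was at 112, 30.6 and 19.3 CPM in Control and 9.003, 12.6 and 17.05 CPM in HFD+Mino. Its log2 fold change was -2.06 (SE 0.57, FDR 0.132), or -0.95 (SE 0.36, FDR 0.186) without Control replicate 1. Tmem88b gave -2.15 (SE 0.60, FDR 0.132), or -1.005 (SE 0.40, FDR 0.2). The fold changes of both thus shrank without that library. All HFD+Mino values of both lay below all Control values, a separation that leaving out a library cannot undo. Ugt8a gave -2.07 (SE 0.59, FDR 0.132), or -1.04 (SE 0.43, FDR 0.212). Nkx6-2, which Control replicate 1 did not raise, changed little between the fits, at -0.87 (SE 0.25, FDR 0.132) and -0.94 (SE 0.29, FDR 0.148).

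The 3-way test asks whether any group differs, and counts a gene where HFD is the highest or lowest group and departs 1.5-fold or more from the average of all groups. It called 0 of the 33 genes by edgeR's quasi-likelihood test, against 2.13% of all tested genes, with DESeq2 calling 2 and the likelihood ratio test 3, below their shares of 15.5% and 12.9% of all genes. At an unadjusted p under 0.05 there were 22 of 33, against 39% of all genes. Without Control replicate 1 it called 0 again, against 1.75%, with 6 at that p, against 36.6%.

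Unlike the myelin genes, some genes of the earlier stages of the lineage passed the thresholds in these fits. Several did so in both comparisons with HFD, which share the HFD mice. A difference between the lists was not tested. Of 12 OPC genes, 1 was called higher (Cspg4) and 1 lower (C1ql1) in HFD against Control, where 0.317% of all genes were called higher and 1.42% lower. In HFD+Mino against HFD 3 were called lower (Cspg4, Gpr17 and Ptprz1) and 1 higher (C1ql1), against 2.16% and 1.98%. Cspg4, the NG2 proteoglycan of OPCs, was at 5.81, 7.09 and 7.77 CPM in Control, 19.5, 21.5 and 22.4 CPM in HFD and 6.68, 7.24 and 5.41 CPM in HFD+Mino. It rose in HFD (log2 fold change 1.62, SE 0.25, FDR 0.00449) and fell in HFD+Mino (log2 fold change -1.71, SE 0.25, FDR 0.00354), and without Control replicate 1 the value in HFD was 1.504 (FDR 0.018) and no longer called. C1ql1, a secreted complement-like protein of OPCs and some neurons, was at 25.2, 17.4 and 14.7 CPM in Control, 1.004, 0.812 and 0.473 CPM in HFD, and 10.2, 5.27 and 18.2 CPM in HFD+Mino. It fell in HFD (log2 fold change -4.67, SE 0.52, FDR 0.000602), also without Control replicate 1 (-4.42, FDR 0.00129), and rose in HFD+Mino (log2 fold change 3.90, SE 0.50, FDR 0.00186). The exon lengths of these genes differ widely, from 1473 nt for C1ql1 to 11931 nt for Cspg4. With the length trend removed Cspg4 missed the threshold in both comparisons (FDR 0.0112 and 0.0126) and C1ql1 passed it in both (0.00172 and 0.00752).

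Of 12 genes of newly formed oligodendrocytes, 2 were called lower in HFD and 2 higher in HFD+Mino against HFD, in both cases Fyn and Tmem163. Of all genes 1.42% were called lower in HFD and 1.98% higher in HFD+Mino. The list as a whole did not follow these 2 in HFD+Mino, with a median log2 fold change of -0.73 and 7 of 12 negative. Fyn, a kinase that acts as an axon is first contacted and wrapped, was at 143, 157 and 188 CPM in Control, 27.9, 47.2 and 40.8 CPM in HFD and 121, 80.3 and 193 CPM in HFD+Mino. HFD lay below both other groups, with log2 fold changes of -2.07 (SE 0.33, FDR 0.0047) against Control and 1.76 (SE 0.32, FDR 0.00797) for HFD+Mino against HFD. Tmem163, a zinc transporter, missed the threshold in HFD without Control replicate 1 (-2.16, FDR 0.02). Whole tissue does not show which cells the Fyn and Tmem163 RNA came from. Of 20 transcription and chromatin regulators of the lineage, 2 were called lower in HFD (Olig2 and Id4), against 1.42% of all genes. In HFD+Mino against HFD 1 was called higher (Id4) and 1 lower (Sox8), against 1.98% and 2.16%. The 20 were split in HFD, with 10 log2 fold changes negative and 10 positive (median 0.028). Olig2, the factor that marks the whole lineage, was at 40.7, 22.1 and 18.5 CPM in Control, 1.66, 3.68 and 2.86 CPM in HFD and 9.86, 7.06 and 20.95 CPM in HFD+Mino. It fell in HFD (log2 fold change -3.30, SE 0.49, FDR 0.00363), also without Control replicate 1 (-2.88, FDR 0.00768). In HFD+Mino its log2 fold change of 2.20 (SE 0.48, FDR 0.0121) missed the threshold, which it passed without Control replicate 1 (FDR 0.00865). Id4, which holds precursors back from differentiating and is also made by astrocytes, fell in HFD (log2 fold change -2.63, SE 0.38, FDR 0.00305) and rose in HFD+Mino (log2 fold change 2.78, SE 0.39, FDR 0.00257).

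**Figure D5:**
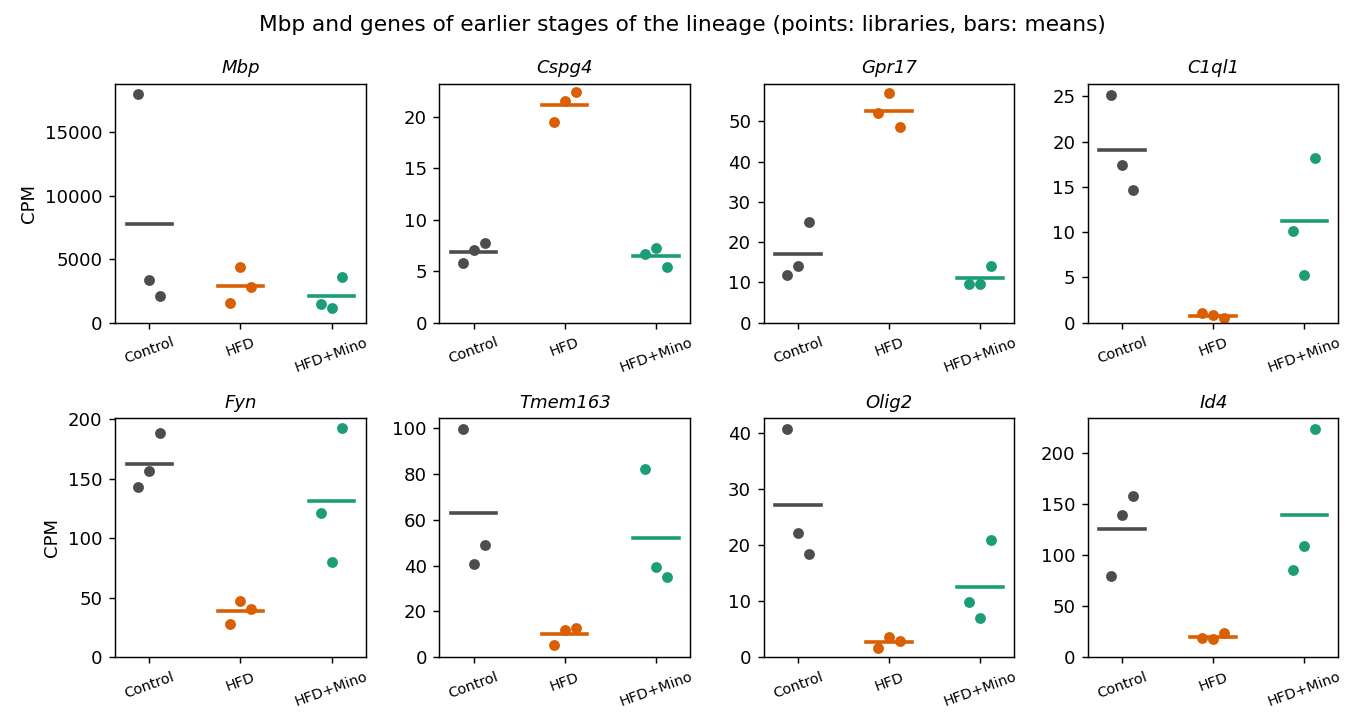
CPM of Mbp and of 7 genes of precursors, newly formed oligodendrocytes and lineage regulators in the 3 groups, with points for libraries and bars for means, each axis starting at 0. Cspg4 and Gpr17 are highest and C1ql1, Fyn, Tmem163, Olig2 and Id4 lowest in all 3 HFD libraries, while the Mbp values of the groups overlap.

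Among the 29 other oligodendrocyte-enriched genes, 1 was called lower in HFD against Control (Slc44a1, a choline transporter) and 2 lower in HFD+Mino against HFD (Dock10 and Edil3). Of all tested genes 1.42% and 2.16% were called lower in these 2 comparisons. The median log2 fold changes of the 29 genes were -0.94 and -0.01, the former -0.15 without Control replicate 1, where Slc44a1 missed the threshold (-2.95, FDR 0.0143). This list thus followed the 33 genes in losing most of its difference from Control without that library. In 23 genes of myelin lipid and sterol synthesis, edgeR's quasi-likelihood test called 0 between HFD and Control, against 1.74% of all genes. At an unadjusted p under 0.05 in that test, 4 were higher and 5 lower, against 11.3% and 9.22%. DESeq2 and the likelihood ratio test each called 2 higher and 2 lower. The shares of all genes were 3.69% and 4.14% by DESeq2 and 2.38% and 3.19% by the likelihood ratio test. Between HFD+Mino and HFD, 2 were called lower, the fatty acid desaturase gene Scd2 (log2 fold change -2.24, SE 0.31, FDR 0.00257) and the fatty acid synthase gene Fasn (log2 fold change -2.38, SE 0.43, FDR 0.0072). Another 2 were called higher, among them Fdps of the sterol pathway (log2 fold change 1.26, SE 0.24, FDR 0.00884). Of all genes 2.16% were called lower and 1.98% higher there. Of 16 axonal partners at the node of Ranvier and beside it, 1 was called higher in HFD (Adam22) and 5 lower in HFD+Mino against HFD, led by Adam22, Cntn1 and Cntn2. The shares of all genes were 0.317% and 2.16%. Without Control replicate 1 the counts were 1 and 4, where 1.01% and 5.27% of all genes were called in either direction. Of 12 genes of signals to oligodendrocytes, edgeR's quasi-likelihood test called 0 in either comparison with HFD, against 1.74% and 4.15% of all genes. At an unadjusted p under 0.05 in that test, 4 of them were higher and 1 lower in HFD, against 11.3% and 9.22%. In HFD+Mino 1 was higher and 5 lower at that p, against 21.6% and 19.8%. DESeq2 called 2 higher and 1 lower in HFD, against 3.69% and 4.14% of all genes. In HFD+Mino it called 1 higher and 4 lower, against 14.3% and 11.8%.

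Summed markers of other cells, over the 9 libraries, were 4592 to 8114 CPM for 10 neuronal genes and 4136 to 6501 CPM for 8 astrocyte genes. The sums were 305 to 535 CPM for 10 microglial genes and 96.6 to 222 CPM for 7 endothelial genes. Of 5 choroid plexus genes, the 4 that passed the filter on low counts summed to 9.84 to 38.6 CPM. Of 7 Schwann cell markers, genes of peripheral myelin, the 5 that passed it summed to at most 39.1 CPM. The 33 genes summed to at least 3715 CPM. Several of these sums moved with the groups. HFD+Mino lay wholly above HFD in the sums of microglial markers (446 to 535 against 388 to 414 CPM) and ependymal markers (251 to 494 against 136 to 239 CPM). It lay wholly below HFD in the sum of Schwann cell markers (12.5 to 21.03 against 33.4 to 39.1 CPM). The 10 microglial genes were split, with 5 log2 fold changes positive and 5 negative. At an unadjusted p under 0.05 in the quasi-likelihood test, 5 were higher and 3 lower, against 21.6% and 19.8% of all genes. Control lay wholly below HFD in the sum of choroid plexus markers (9.84 to 10.1 against 12.4 to 38.6 CPM). The same held for ependymal markers (8.296 to 119.7 CPM) and Schwann cell markers (22.1 to 32.7 CPM). Of the 5 tested Schwann cell genes, 3 log2 fold changes in HFD against Control were positive and 2 negative. The neuronal, astrocyte and endothelial sums of HFD overlapped those of both other groups. HFD+Mino lay wholly below Control in the neuronal sum (4692 to 5355 against 5633 to 8114 CPM) and in the Schwann cell sum. It lay wholly above Control in the ependymal and choroid plexus sums. Among single tested genes, 23.3% lay wholly higher and 23.5% wholly lower in HFD+Mino than in HFD. For HFD against Control these shares were 19.7% and 16%, and for HFD+Mino against Control 8.93% and 10.1%. The part of these cell types in the differences between groups was not tested. Among these 6 lists in the fit to all 9 samples, the quasi-likelihood test called the astrocyte factor Sox9 higher in HFD and lower in HFD+Mino against HFD, and the endothelial receptor Kdr lower in the latter. Of all genes 0.317% were called higher in HFD and 2.16% lower in HFD+Mino against HFD. Without Control replicate 1, Sox9 in HFD missed the threshold (FDR 0.0231).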

How the data were processed

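The authors deposited 1 table of raw gene counts, 1 column per sample, made from SMARTer ultra-low input libraries with HISAT2 and featureCounts on mm10 per the labels. Versions were not given in the sources used here, nor was a strand setting. Groups and replicate numbers came from the sample labels. The 33 genes and the other lists were chosen with earlier results of these data known.

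Genes were tested with edgeR 4.0.16 (R 4.3.3, TMM factors, default filter on low counts, quasi-likelihood F test, 1 mean per group, all 9 samples), and 17344 of 27179 genes were tested. All 33 genes passed that filter. A total of 958 genes carried no symbol. A gene was called at a Benjamini-Hochberg FDR under 0.01 and at least 1.5-fold. Any of the 33 genes could be named, and of each other list at most the 3 called genes of lowest FDR per comparison. Relative levels used log2(CPM + 0.5). Alternatives used DESeq2 1.42.0 and the settings given in the closing section. The test was run first on simulated counts. Nothing in the labels or methods ties mice to litters or batches, so p-values measure the spread between these libraries. Exon lengths came from GENCODE, and positions and promoters from RefSeq GRCm38.p6. Motifs, lists and figures used Python 3.11.15.

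Replicate numbers in the sample titles were checked for pairing by the correlation of same-numbered deviations from group means. Control and HFD+Mino gave 0.194, 0.24 and 0.395, all positive. Whether these mice were paired is not known. The main fit is unpaired, and fits with a replicate block are given in the closing section. Control and HFD gave -0.179, -0.122 and -0.0143, and HFD and HFD+Mino gave -0.184, -0.203 and -0.0188.

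Some results are not reported here.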

Additional observations from a re-analysis of the deposited data

How the results depend on the processing

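The quasi-likelihood count of 0 myelin genes called in HFD against Control became 2 with DESeq2 and 2 with edgeR's likelihood ratio test. In HFD+Mino against HFD it became 1 with DESeq2 and 1 with the trend on exon length removed, and in HFD+Mino against Control 3 with DESeq2. In the 3-way test it became 2 with DESeq2, 3 with the likelihood ratio test, 2 with no filter on low counts and 1 at an FDR under 0.05. Leaving out 1 library at a time gave 0 to 0 in HFD against Control and in the 3-way test and 0 to 1 in the comparisons with HFD+Mino, the 1 being Adamts4 without HFD+Mino replicate 3. The median log2 fold change of the 33 genes ran from -1.85 to -0.27, from -0.68 to 0.16 and from -1.87 to -0.36 over these 9 fits for HFD against Control, HFD+Mino against HFD and HFD+Mino against Control. With the level of the other oligodendrocyte-enriched genes as a term, chosen after seeing the data, the first and last medians were -0.022 and 0.18, or -0.037 and 0.21 without Control replicate 1. Mbp in HFD against Control ran from -1.88 to 0.11 without 1 library, the 0.11 without Control replicate 1, and turned to 0.47 with that term and to 0.47 with both, to 0.023 in HFD+Mino against HFD with the length trend removed, and to 0.20 and 0.27 in HFD+Mino against Control with the term and with both. The 14 genes that lay wholly apart in relative level became 15 to 24 without 1 library, the 24 without HFD+Mino replicate 3. Leaving out a library cannot undo such a separation, so this count could not fall. The causes were not tested.

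Counts of calls over all tested genes moved more. For the 3-way test, 369 became 2366 with DESeq2, 2234 with the likelihood ratio test, 1299 with no filter, 674 with the GC trend removed, 2258 at an FDR under 0.05, 244 with the oligodendrocyte term and no Control replicate 1, and 3 to 2396 without 1 library. For HFD against Control, 302 became 1198, 966, 481, 504 and 1001 in the same 5 settings, 617 with the 6 samples compared alone, 126 and 136 with the oligodendrocyte term with and without Control replicate 1, and 59 to 550 without 1 library. For HFD+Mino against HFD, 719 became 3992, 3314, 1905, 1599 and 4757 in those 5 settings, 406 with 6 samples, 473 with the length trend removed and 29 to 3815 without 1 library. For HFD+Mino against Control, 0 became 276 with DESeq2, 106 with the likelihood ratio test, 1 with no filter and 0 to 1120 without 1 library. The highest count in each came without HFD+Mino replicate 3. With a replicate block in Control and HFD+Mino alone, the counts were 2283, 1078, 4441 and 551, and with a replicate block in all 9 samples 488, 284, 1369 and 0. Either block called 0 of the 33 genes in all 4 comparisons.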
